A study of Mus musculus with 9 samples.

Results

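Vascular endothelial growth factors (VEGFs) and angiopoietins are secreted proteins through which stromal cells act on blood and lymph vessels. The 8 genes described here are Vegfa, Vegfb, Vegfc, Pgf, Angpt1, Angpt2, Angptl2 and Angptl4, taken by name from a table of 26214 genes, and each was found in it under that symbol. RNA was sequenced from adipose stromal cells (ASCs) of subcutaneous adipose tissue and from fibro-adipogenic progenitors (FAPs) of the quadriceps of C57Bl/6 J mice on day 1 after an injection into the quadriceps. ASCs (3 libraries) and FAPs (2 libraries) came from mice given NaCl, and injured FAPs (3 libraries) from mice given glycerol, which damages muscle fibres. A further library of CD31+CD45+ cells came from quadriceps after glycerol, without a replicate, so it stands beside the other groups and entered no test. The mice were young adult males, the stromal cells were depleted of CD45+ and CD31+ cells and then selected for Sca-1 on magnetic beads, and the study describes triplicates from a pool of cells of 3 animals. Tissue and cell type changed together between ASCs and FAPs, so they cannot be told apart, and p-values measure the spread between libraries, which may share a pool and its animals.

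Values are normalized read counts as the authors scaled them, and in every library 100% of them came out as whole reads divided by 1 factor per library, within 0.01 of a whole read. Reads on genes numbered 27481573, 27349184 and 27402102 in ASCs, 24052508 and 24164447 in FAPs, 26968235, 26698572 and 27028114 in injured FAPs and 13091077 in the CD31+CD45+ library. The 3 stromal groups were compared with limma on log2(value + 1) over 13601 genes whose mean reached 10, and all 8 ligands passed that filter. To count as differentially expressed, a gene needed an adjusted p below 0.05 together with a log2 fold change of more than 0.58 in size. The comparisons share libraries, so their values are given side by side and are not independent of each other.

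As background, Vegfa drives sprouting and permeability of blood vessels through the receptor Kdr, and it is induced by low oxygen. Pgf and Vegfb bind Flt1 but not Kdr, whereas Vegfc, after proteolytic maturation, acts on Flt4 and promotes the growth of lymphatic vessels. Angpt1, made mostly by perivascular and stromal cells, activates the endothelial receptor Tek and stabilizes vessels, and Angpt2, stored and released by endothelial cells, can counter it, while Angptl2 and Angptl4 share the fold of angiopoietins without binding Tek. Angptl4 is best known as an inhibitor of lipoprotein lipase.

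The libraries were first checked against markers of the cell types they could hold. Pdgfra, a defining gene of FAPs and ASCs, had values of 10837, 15083 and 13043 in the 3 ASC libraries, 17754 and 17756 in the 2 FAP libraries, 23649, 25268 and 23236 in the 3 injured FAP libraries and 119 in the CD31+CD45+ library. It was thus high in all 8 stromal libraries and lowest in the CD31+CD45+ library, as were Dcn, Col1a1, Col3a1, Lum and Pdpn. Ly6a, which encodes Sca-1, and Cd34 were not lowest there but in between. Ly6a was at 17672 in the CD31+CD45+ library, above both FAP libraries (16542 and 10823) and below all ASC and injured FAP libraries. Cd34 was at 17085 there, above the injured FAP libraries (11933, 10736 and 11553) and below all ASC and FAP libraries. Pecam1, which encodes CD31, was at 45323 and Ptprc, which encodes CD45, at 797 in the CD31+CD45+ library. In ASCs, Pecam1 was at 83, 46.4 and 67.8. Pecam1 in injured FAPs was at 192, 269 and 121. FAPs stood apart here, with Pecam1 at 195 in replicate 1 and listed at 0 in replicate 2, as was Cd36 (1080.2 in replicate 1).

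The 2 FAP libraries listed 28 genes at 0 that were at 10 or more in each of the other 6 stromal libraries, against 5 such genes for ASCs and 0 for injured FAPs. Of the 28 genes, 27 were above 20 in the CD31+CD45+ library, and they included the endothelial genes Plvap and Cldn5 and the leukocyte genes Lyz2, Cd74, Csf1r and Fcer1g. None of the 8 ligands was among the 28. For FAPs a 0 was needed in 2 libraries, for ASCs and injured FAPs in 3 each, so these counts are not on equal terms. The share of all genes above 20 in the CD31+CD45+ library was not computed. Other endothelial genes were highest of the stromal groups in FAPs, such as Cdh5 with 123, 87.2 and 59 in the 3 ASC libraries, 1438 and 686 in the 2 FAP libraries, 649, 663 and 537 in the 3 injured FAP libraries and 98652 in the CD31+CD45+ library. Some endothelial and leukocyte markers were thus listed at 0 in FAPs while others were not, and how this pattern arose was not tested. Leukocyte genes were also unequal within injured FAPs, where Lyz2 was at 142, 725 and 109, with replicate 2 far above the others.

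Compared with FAPs, 3 of the 8 ligands were differentially expressed in ASCs, with Vegfa and Angptl4 higher and Vegfc lower, in limma with Benjamini-Hochberg adjustment. Of all tested genes, 47.2% passed in this comparison, 23.4% higher and 23.8% lower. Injured FAPs differed from FAPs in 5 of the 8 ligands, with Angptl4 higher and Vegfc, Pgf, Angpt1 and Angpt2 lower. The background was 52.6% of genes, 24.9% higher and 27.7% lower. Injured FAPs differed from ASCs in 5 of the 8 ligands as well, with Angptl4 higher and Vegfa, Pgf, Angpt1 and Angpt2 lower, beside 50.8% of all genes, 25% higher and 25.8% lower. With about every other gene differing in each comparison, 3 or 5 of 8 ligands lie near the background, so their number is not a result about the ligands, and the description below is of the individual genes. As deposited, the median log2 fold change of the 8 ligands was 0.38, -0.32 and -0.92 in the 3 comparisons in the order above. Beside this it was 0.0049, -0.051 and 0.021 over all tested genes. The median of the ligands depends on scaling. With every library scaled to the same total of reads, Pgf, Angpt1, Angpt2 and Angptl2 turned negative in ASCs compared with FAPs. The median of the ligands in that comparison was then negative as well, and so was that of all tested genes, at -0.48. Relative to the median of all tested genes, Angpt1 was at 0.36, Angpt2 at 0.34, Angptl2 at 0.26 and Pgf at -0.029.

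Scaling mattered for the smaller differences. Scaling every library to the same total of reads (CPM) moved the median log2 fold change of all genes by -0.48 in ASCs compared with FAPs, by 0.12 in injured FAPs compared with FAPs and by 0.56 in injured FAPs compared with ASCs. Scaling to a common 75th percentile moved it by -0.17, -0.050 and 0.12. The share of differentially expressed genes that were higher went from 49.6% to 19.6% in ASCs compared with FAPs, and from 49.3% to 81.7% in injured FAPs compared with ASCs, when CPM was used. No differentially expressed ligand changed direction under quantile normalization, the common 75th percentile or CPM. In injured FAPs compared with ASCs the size did move, and CPM gave log2 fold changes of -1.44 for Vegfa, -0.69 for Pgf, -0.84 for Angpt1, -1.30 for Angpt2 and 1.71 for Angptl4. In ASCs compared with FAPs, CPM gave 2.01 for Angptl4. Vegfa in ASCs compared with FAPs was 1.59 with quantile normalization and 1.63 in CPM, both below the value as deposited. Relative to the median of all genes, Vegfa in ASCs compared with FAPs was 2.197 as deposited, 1.602 with quantile normalization and 2.11 in CPM. By the same measures, Angpt2 in injured FAPs compared with FAPs was -1.82, -1.63 and -1.51.

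**Figure D1:**
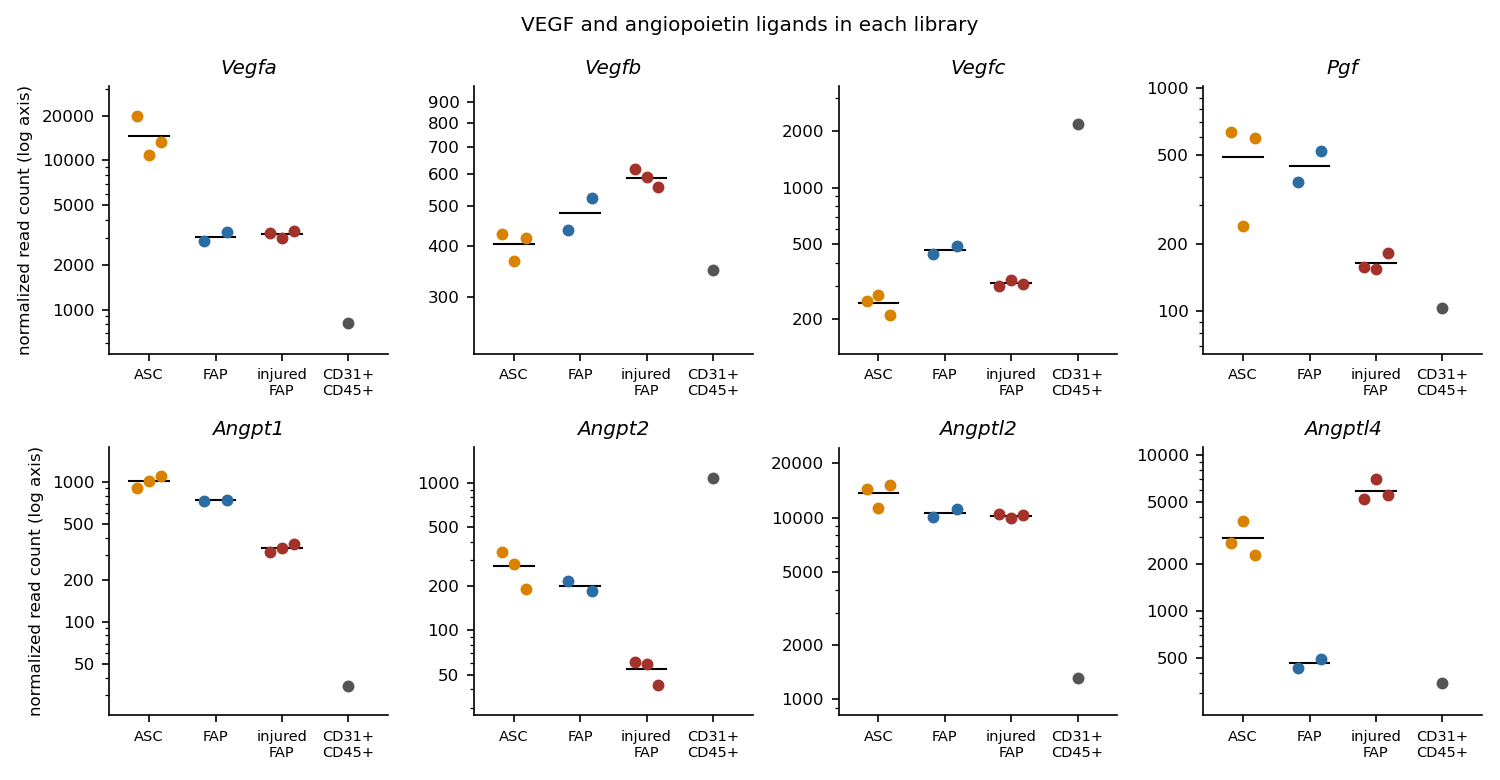
Normalized read count (log axis) of the 8 ligands in each library, by group, with a line at the mean of each replicated group. Angptl4 lies between 435 and 497 in FAPs and between 5202 and 6999.7 in injured FAPs, and Vegfc and Angpt2 are highest in the CD31+CD45+ library.

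**Figure D2:**
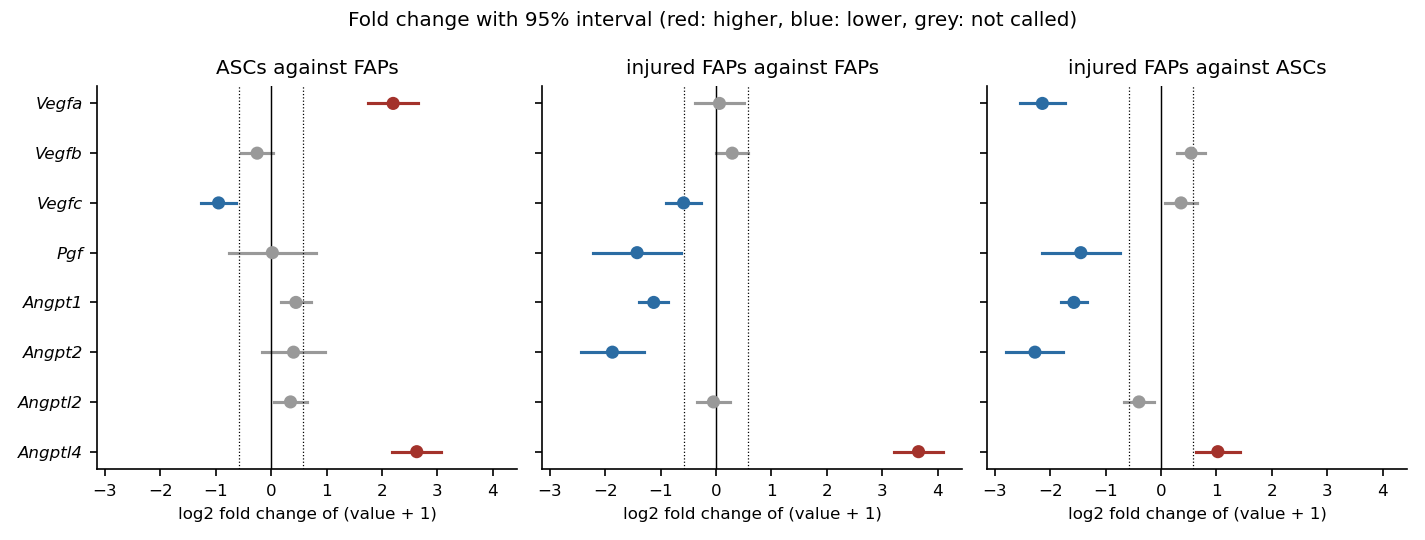
Log2 fold change of each ligand on the log2(value + 1) scale (point) with its 95% interval from limma (line) in the 3 comparisons, with dotted lines at the cutoff of 0.58 in either direction. Angptl4 is higher in all 3 comparisons, from 1.03 to 3.65, and kept that direction under the 3 other scalings.

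Start-site sequences from RefSeq (build GRCm38.p6, 250 bases before to 50 after each start) were matched to 5 of the 8 ligands, with 7 windows in all, since Vegfa and Pgf each have a pair of starts. Angpt1, Angpt2 and Angptl4 were not matched. The upstream windows of Vegfa, Vegfc and Pgf are shown because these 3 matched ligands were differentially expressed in at least 1 comparison. Capitals mark the GC box (GGGCGG on either strand) and the core of the hypoxia response element (ACGTG or GCGTG on either strand), and sequences read 5′ to 3′ on the gene's strand.
Vegfa, chr17:46032328-46032627, minus strand: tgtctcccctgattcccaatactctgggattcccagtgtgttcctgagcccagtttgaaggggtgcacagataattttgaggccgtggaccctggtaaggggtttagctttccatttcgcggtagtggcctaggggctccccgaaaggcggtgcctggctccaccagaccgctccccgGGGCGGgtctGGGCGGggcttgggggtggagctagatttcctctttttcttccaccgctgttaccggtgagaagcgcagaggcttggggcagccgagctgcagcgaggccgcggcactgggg
Vegfc, chr8:54077282-54077581, plus strand: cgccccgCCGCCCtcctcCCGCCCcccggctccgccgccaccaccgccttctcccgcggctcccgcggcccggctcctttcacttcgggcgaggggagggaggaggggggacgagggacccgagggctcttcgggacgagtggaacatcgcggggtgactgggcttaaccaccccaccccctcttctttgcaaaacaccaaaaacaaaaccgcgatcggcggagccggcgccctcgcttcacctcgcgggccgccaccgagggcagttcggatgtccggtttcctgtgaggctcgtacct
Pgf, chr12:85177264-85177563, minus strand: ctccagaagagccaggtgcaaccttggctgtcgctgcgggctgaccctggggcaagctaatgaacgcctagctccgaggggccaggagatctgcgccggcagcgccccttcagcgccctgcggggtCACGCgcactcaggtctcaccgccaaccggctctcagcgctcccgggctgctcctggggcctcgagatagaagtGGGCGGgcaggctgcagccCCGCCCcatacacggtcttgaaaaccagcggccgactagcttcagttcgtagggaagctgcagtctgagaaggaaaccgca

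The GC box was found in 6 of the 7 windows, which cover all 5 matched ligands, and in 35.7% of the 32851 windows of the table. It is a known binding motif of Sp1-type factors. The core of the hypoxia response element was in 3 of the 7 windows, of Vegfb, of the upstream start of Pgf and of the inner start of Vegfa (chr17:46025114-46025413, minus strand), and in 43.8% of all windows. The AP-1 motif TGANTCA was in 0 of the 7 windows and in 7.81% of all windows. In no window did matches of different motifs overlap. The windows shown were rich in G and C, at 62% for Vegfa, 70.3% for Vegfc and 66% for Pgf, against a median of 52.7% over all windows. A match describes letters only, and a motif missing here says only that these letters are not in this window.

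Vegfa (chr17:46016993-46032369, minus strand) was the VEGF gene with the highest level per kb in the stromal libraries. Its values were 19739, 10908 and 13243 in the 3 ASC libraries, 2883 and 3294 in the 2 FAP libraries, 3276, 3030.2 and 3347 in the 3 injured FAP libraries and 811 in the CD31+CD45+ library. All 3 ASC libraries lay above every other library, with replicate 1 highest, and the FAP and injured FAP libraries overlapped. The mean was 14630.1 ± 4576 in ASCs (SD, n = 3), 3088 ± 290.3 in FAPs (SD, n = 2) and 3218 ± 166 in injured FAPs (SD, n = 3). Vegfa was 4.60-fold higher in ASCs than in FAPs, a log2 fold change of 2.202 (95% interval 1.75 to 2.65, adjusted p = 8.87e-06, in limma with Benjamini-Hochberg adjustment). Between injured FAPs and FAPs, the log2 fold change was 0.061 with an interval of -0.39 to 0.51, so a shift beyond the cutoff of 0.58 in either direction lay outside the interval. In injured FAPs compared with ASCs it fell by 2.14 on the log2 scale (adjusted p = 3.07e-06, in limma with Benjamini-Hochberg adjustment). Bulk libraries do not tell fewer expressing cells from less RNA per cell, for this or any gene below. The CD31+CD45+ library held the least Vegfa of the 9, at a value of 811 from 517 reads (exact 95% Poisson interval 743 to 884, counting error only).

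Since Vegfa is a classical target of the hypoxia-inducible factors, the fixed lists of these factors and of hypoxia-responsive genes were set beside it. As background for the counts of both lists, 47.2%, 52.6% and 50.8% of all tested genes passed in the 3 comparisons, in the order below. Of 19 tested hypoxia-responsive genes, 9 were higher and 3 lower in ASCs compared with FAPs, 8 higher and 6 lower in injured FAPs compared with FAPs and 3 higher and 7 lower in injured FAPs compared with ASCs, in limma with Benjamini-Hochberg adjustment, with median log2 fold changes of 0.57, -0.20 and -0.24. Hk2, a glycolytic enzyme, showed the largest rise in ASCs compared with FAPs, with values of 49869.9, 22008 and 31300.2 in the 3 ASC libraries, 1126 and 1123 in the 2 FAP libraries, 5718, 5089 and 5423 in the 3 injured FAP libraries and 86.3 in the CD31+CD45+ library. Its log2 fold change was 4.85 (adjusted p = 2.72e-07, in limma with Benjamini-Hochberg adjustment), and all 3 ASC libraries were above the rest, as with Vegfa. Unlike Vegfa, Hk2 was also higher in injured FAPs than in FAPs, by 2.26 (adjusted p = 3.18e-05, in limma with Benjamini-Hochberg adjustment). Slc2a1, the glucose transporter, rose by 2.25 in ASCs and by 2.01 in injured FAPs compared with FAPs, with values of 4296, 1828 and 2117 in the 3 ASC libraries, 521 and 549 in the 2 FAP libraries, 2121, 2020.4 and 2367 in the 3 injured FAP libraries and 1615 in the CD31+CD45+ library. Pgk1 and Ldha, which act late in glycolysis, were highest in injured FAPs. Pgk1 rose by 2.16 and Ldha by 1.83 in injured FAPs compared with FAPs. Slc2a1, Hk2, Pgk1 and Ldha thus rose in injured FAPs while the interval of Vegfa was -0.39 to 0.51 on the log2 scale, although the difference between these genes and Vegfa was not tested. Others of the list fell in injured FAPs compared with FAPs, such as Pfkfb4, which fell by 1.29, and Mxi1, which fell by 0.90.

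Of the 9 tested hypoxia-inducible factors and regulators, 2 were higher and 2 lower in ASCs compared with FAPs, 1 higher and 4 lower in injured FAPs compared with FAPs and 0 higher and 5 lower in injured FAPs compared with ASCs, in limma with Benjamini-Hochberg adjustment. Hif1a, the oxygen-sensitive subunit, had values of 8381, 6121 and 6317 in the 3 ASC libraries, 2361 and 2218 in the 2 FAP libraries, 8699.9, 10318 and 9345 in the 3 injured FAP libraries and 4115 in the CD31+CD45+ library. It was lowest in FAPs and rose by 1.59 in ASCs and by 2.04 in injured FAPs compared with FAPs. Epas1, which encodes the related subunit abundant in endothelium, went the other way among the muscle cells, with values of 3475, 2373 and 3268 in the 3 ASC libraries, 6431 and 5963 in the 2 FAP libraries, 1619, 1519 and 1193 in the 3 injured FAP libraries and 69053 in the CD31+CD45+ library. It fell by 2.11 in injured FAPs compared with FAPs (adjusted p = 4.02e-06, in limma with Benjamini-Hochberg adjustment) and was highest in the CD31+CD45+ library. Arnt, their shared partner, was higher in ASCs than in FAPs by 0.93, and Hif3a fell by 3.14 in injured FAPs compared with FAPs. The counts of this list lie near the 47.2%, 52.6% and 50.8% of all tested genes that passed, so they are not a result about it. Whether any gene of this list bears on Vegfa was not tested.

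Vegfb (chr19:6982473-6987651, minus strand) and Pgf (chr12:85166635-85177790, minus strand) are the ligands that bind Flt1 without Kdr. Vegfb had values of 427, 367 and 417 in the 3 ASC libraries, 438 and 525 in the 2 FAP libraries, 616, 591 and 558 in the 3 injured FAP libraries and 348 in the CD31+CD45+ library. The 3 stromal groups did not overlap and ran from ASCs over FAPs to injured FAPs, but the steps were small. The log2 fold change of Vegfb was -0.25 in ASCs compared with FAPs and 0.29 in injured FAPs compared with FAPs, and neither passed as deposited. In CPM the first was -0.77 (adjusted p = 2.40e-04, in limma with Benjamini-Hochberg adjustment), past the cutoffs. In injured FAPs compared with ASCs it was 0.54 (adjusted p = 0.00182, in limma with Benjamini-Hochberg adjustment), below the fold cutoff of 0.58. It came to 1.18 in CPM, 0.66 with a common 75th percentile and 0.63 with edgeR, all past the cutoffs.

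Pgf varied most of the 8 ligands among the replicates of ASCs and of FAPs, but not of injured FAPs, with values of 635, 240.1 and 594 in the 3 ASC libraries, 377 and 519 in the 2 FAP libraries, 158, 154 and 182 in the 3 injured FAP libraries and 104 in the CD31+CD45+ library. ASC replicate 2 lay far below the other ASC libraries and below both FAP libraries, whereas all 3 injured FAP libraries were below every library of ASCs and FAPs. Its coefficient of variation was 44.3% in ASCs, 22.5% in FAPs and 9.03% in injured FAPs. Between ASCs and FAPs the log2 fold change of 0.022 had an interval of -0.77 to 0.81, too wide to set either direction. With each library left out it ran from -0.23 to 0.47, the latter without ASC replicate 2 (adjusted p = 0.0393, in limma with Benjamini-Hochberg adjustment), still below the fold cutoff. Pgf fell by 1.43 in injured FAPs compared with FAPs (adjusted p = 0.00505, in limma with Benjamini-Hochberg adjustment) and fell by 1.45 compared with ASCs (adjusted p = 0.00225). Without FAP replicate 2, the first of these became -1.19 with a limma adjusted p of 0.0563, no longer past the threshold, while without FAP replicate 1 it was -1.66 with a limma adjusted p of 0.0144 and still passed. The CD31+CD45+ library had the lowest Pgf, 66 reads (exact 95% Poisson interval of the value 80.1 to 132).

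Vegfc (chr8:54077606-54187096, plus strand) was lowest in ASCs, where Vegfa was highest. Its values were 250.3, 269.6 and 211 in the 3 ASC libraries, 446 and 492 in the 2 FAP libraries, 301, 325 and 309.7 in the 3 injured FAP libraries and 2163 in the CD31+CD45+ library. FAPs were highest of the stromal groups and ASCs lowest, with no overlap between any of the 3 groups, and the CD31+CD45+ library was above all 8 stromal libraries. Vegfc was 1.93-fold lower in ASCs than in FAPs, a log2 fold change of -0.95 (adjusted p = 2.51e-04, in limma with Benjamini-Hochberg adjustment). In injured FAPs compared with FAPs it fell by 0.59 (95% interval -0.90 to -0.27, adjusted p = 0.00436), just past the fold cutoff. That call is marginal, since the log2 fold change was -0.43 in CPM, -0.55 with edgeR and -0.57 with DESeq2, short of 0.58 each time. Injured FAPs compared with ASCs gave 0.36, below the cutoff, though 0.97 in CPM. The CD31+CD45+ value came from 1378 reads (exact 95% Poisson interval 2050.0 to 2279.9). As deposited it was 8.88, 4.61 and 6.93 times the means of ASCs, FAPs and injured FAPs. The stromal libraries then held 9.75% to 22.8% of the CD31+CD45+ value. In CPM it was 105, against 6.91, 8.70 and 6.13 in the ASC libraries, so the fold over ASCs was larger.

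Vegfd, the other lymphatic growth factor, did not follow Vegfc. Its values were 4129, 3914 and 3669 in the 3 ASC libraries, 269 and 283 in the 2 FAP libraries, 1641, 1507 and 1057 in the 3 injured FAP libraries and 58.1 in the CD31+CD45+ library. It was highest in ASCs and lowest of the stromal groups in FAPs, with no overlap between the 3 groups. Compared with FAPs, Vegfd was higher by 3.82 in ASCs (adjusted p = 9.94e-08) and by 2.31 in injured FAPs (adjusted p = 1.75e-06, both in limma with Benjamini-Hochberg adjustment). Both growth factors mature through cleavage, and for that of Vegfc, Ccbe1 recruits the protease Adamts3. Of 6 genes of this processing, 1 was higher and 2 lower in ASCs compared with FAPs, 2 higher and 2 lower in injured FAPs compared with FAPs and 2 higher and 1 lower in injured FAPs compared with ASCs. Ccbe1 had values of 441, 305 and 372 in the 3 ASC libraries, 1067 and 883 in the 2 FAP libraries, 3384, 3599 and 3804 in the 3 injured FAP libraries and 11 in the CD31+CD45+ library and was highest in injured FAPs, 1.89 above FAPs on the log2 scale (adjusted p = 3.72e-06, in limma with Benjamini-Hochberg adjustment). Adamts3 had values of 136, 138 and 134 in the 3 ASC libraries, 1394 and 1550.4 in the 2 FAP libraries, 785, 835 and 755 in the 3 injured FAP libraries and 54.9 in the CD31+CD45+ library and was highest in FAPs, as Vegfc was among the stromal groups. It fell by 3.42 in ASCs and fell by 0.89 in injured FAPs compared with FAPs. Pcsk5, a convertase, fell by 0.98 in injured FAPs compared with FAPs. Furin, another convertase, rose by 0.80. The counts of these 6 genes stand beside 47.2%, 52.6% and 50.8% of all tested genes in the 3 comparisons.

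Levels of different genes were compared per kb of exonic length. Summed over Vegfa, Vegfb, Vegfc, Vegfd and Pgf, the level per kb was 8359, 5519 and 6247 in ASCs, 1655 and 1934 in FAPs, 2410.2, 2264 and 2115 in injured FAPs and 1464 in the CD31+CD45+ library. Vegfa made up 67, 56.1 and 60.2% in ASCs, 49.4 and 48.4% in FAPs, 38.6, 38 and 44.9% in injured FAPs and 15.7% in the CD31+CD45+ library. The share of Vegfc was 1.22, 1.99 and 1.38% in ASCs, 11 and 10.4% in FAPs, 5.10, 5.86 and 5.98% in injured FAPs and 60.3% in the CD31+CD45+ library. Vegfa was thus the largest part in every stromal library and Vegfc in the CD31+CD45+ library. Vegfd held 24.11, 34.6 and 28.7% in ASCs, 7.94 and 7.15% in FAPs, 33.2, 32.5 and 24.4% in injured FAPs and 1.94% in the CD31+CD45+ library. Injured FAPs were closer to ASCs than to FAPs in the share of Vegfd, but closer to FAPs in the share of Vegfb, which was 3.99, 5.19 and 5.21% in ASCs, 20.7 and 21.2% in FAPs, 19.9, 20.4 and 20.6% in injured FAPs and 18.6% in the CD31+CD45+ library. The share of Pgf was 3.65, 2.09 and 4.57% in ASCs, 10.9 and 12.9% in FAPs, 3.15, 3.28 and 4.13% in injured FAPs and 3.40% in the CD31+CD45+ library, highest in FAPs. In injured FAPs the share of Vegfd lay above both FAP libraries and the other 4 shares below them, that of Vegfb by little, and the shares were not tested.

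**Figure D3:**
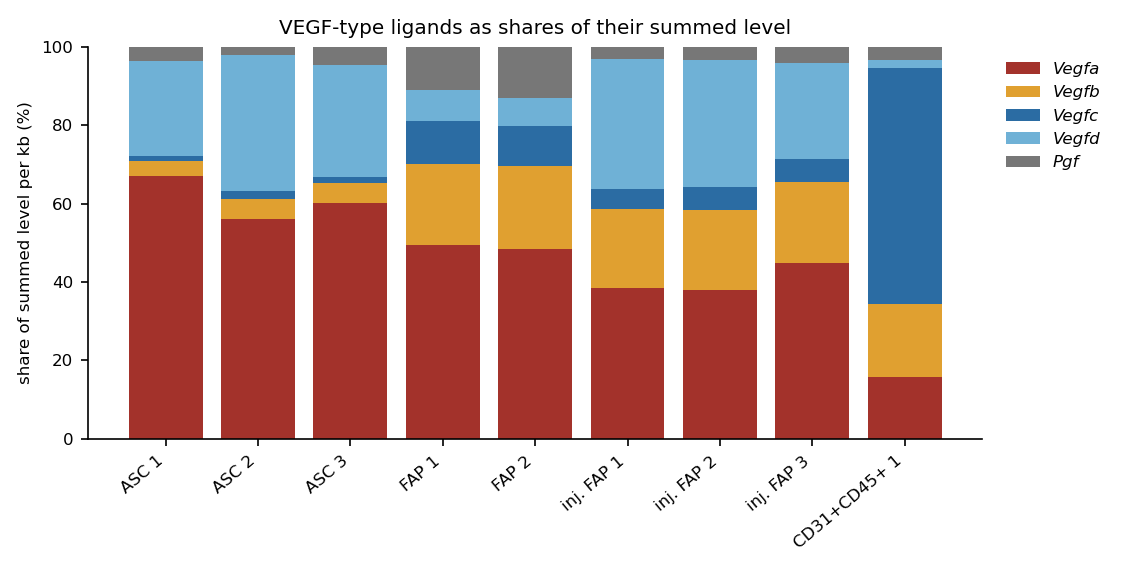
Share of each of 5 VEGF-type ligands (bar segments, %) in their summed level per kb, in each of the 9 libraries. In injured FAPs Vegfd takes 24.4 to 33.2%, with 7.15 and 7.94% for FAPs, and Vegfc 60.3% in the CD31+CD45+ library.

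Angpt1 (chr15:42424723-42676977, minus strand), the activating ligand of Tek, had values of 906, 1022 and 1103 in the 3 ASC libraries, 733 and 744 in the 2 FAP libraries, 319, 336 and 362 in the 3 injured FAP libraries and 34.5 in the CD31+CD45+ library. The 3 stromal groups did not overlap, with ASCs highest and injured FAPs lowest, and replicates were close to each other. The means were 1010.5 ± 99 in ASCs (SD, n = 3), 739 ± 7.80 in FAPs (SD, n = 2) and 339 ± 21.6 in injured FAPs (SD, n = 3). Angpt1 was 2.18-fold lower in injured FAPs than in FAPs, a log2 fold change of -1.13 (95% interval -1.39 to -0.86, adjusted p = 2.01e-05, in limma with Benjamini-Hochberg adjustment). It fell by 1.57 compared with ASCs (adjusted p = 7.02e-07). The difference between ASCs and FAPs, 0.45 (adjusted p = 0.00839, in limma with Benjamini-Hochberg adjustment), stayed below the fold cutoff and was -0.12 in CPM. In the CD31+CD45+ library Angpt1 rested on 22 reads (exact 95% Poisson interval of the value 21.6 to 52.3), and each stromal library was above that range.

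Angpt2 (chr8:18690263-18741562, minus strand), the context-dependent antagonist, had values of 341, 282 and 192 in the 3 ASC libraries, 215 and 185 in the 2 FAP libraries, 61.2, 59.7 and 42.7 in the 3 injured FAP libraries and 1089 in the CD31+CD45+ library. ASCs and FAPs overlapped, all 3 injured FAP libraries were below them, and the CD31+CD45+ library was above all 8. Angpt2 was 3.66-fold lower in injured FAPs than in FAPs, a log2 fold change of -1.87 (95% interval -2.45 to -1.30, adjusted p = 1.22e-04, in limma with Benjamini-Hochberg adjustment). Compared with ASCs it fell by 2.27 (adjusted p = 1.15e-05). This was the largest fall of the 8 ligands in both comparisons of injured FAPs as deposited, whereas in CPM Vegfa fell more than Angpt2 in injured FAPs compared with ASCs (-1.44 against -1.30). In ASCs compared with FAPs the log2 fold change was 0.40 and did not pass, although it reached 0.65 with quantile normalization and 0.63 without ASC replicate 3. It was -0.14 in CPM. The CD31+CD45+ value, from 694 reads (exact 95% Poisson interval 1009.6 to 1173), was 4.01, 5.44 and 20 times the means of ASCs, FAPs and injured FAPs as deposited. In CPM it was 53, against 9.42, 9.10 and 5.58 in the ASC libraries and 9.40 and 8.15 in the FAP libraries. The fold over ASCs was then larger than that over FAPs.

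Angpt2 lies within Mcph1, a gene on the opposite strand, and Angptl2 within Ralgps1, also on the opposite strand. The sources used here do not give the strand setting of the counting, and overlap between exons was not checked. Whether such pairs share counted reads was therefore not tested. Mcph1 was highest in injured FAPs, where Angpt2 was lowest of the stromal groups, with means of 171 in ASCs, 103 in FAPs and 500.3 in injured FAPs, and a log2 fold change of 2.28 in injured FAPs compared with FAPs (adjusted p = 2.61e-06, in limma with Benjamini-Hochberg adjustment). Ralgps1 had means of 246, 148 and 89.5 in the same order, far below those of Angptl2.

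The log2 ratio of Angpt1 to Angpt2 values was 1.41, 1.86 and 2.52 in ASCs, 1.77 and 2.01 in FAPs, 2.38, 2.49 and 3.08 in injured FAPs and -4.98 in the CD31+CD45+ library. Angpt1 exceeded Angpt2 in all 8 stromal libraries, also per kb, and Angpt2 exceeded Angpt1 in the CD31+CD45+ library. The ratio within a library is not changed by multiplying the library by 1 factor, but quantile normalization does change it. In injured FAPs compared with FAPs, it gave log2 fold changes of -1.28 for Angpt1 and -1.68 for Angpt2, against -1.13 and -1.87 as deposited. In ASCs compared with FAPs, they were 0.30 and 0.65, against 0.45 and 0.40 as deposited. The differences in the ratio given here are as deposited. Although both ligands fell in injured FAPs, the ratio was above both FAP libraries in each of the 3 injured FAP libraries, with a difference of 0.76 between the means (exact two-sided permutation p = 0.2, as the doubled one-sided p, the smallest that 3 against 2 libraries allow in this way, and 0.45 with Benjamini-Hochberg adjustment over 3 comparisons). Against ASCs the difference was 0.72, with overlapping groups (exact two-sided permutation p = 0.3, adjusted 0.45, where 3 against 3 libraries cannot go below 0.1). ASCs and FAPs differed by 0.042, with the FAP libraries inside the range of ASCs (exact two-sided permutation p = 1). With this permutation test, no comparison of the ratio could reach 0.05.

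**Figure D4:**
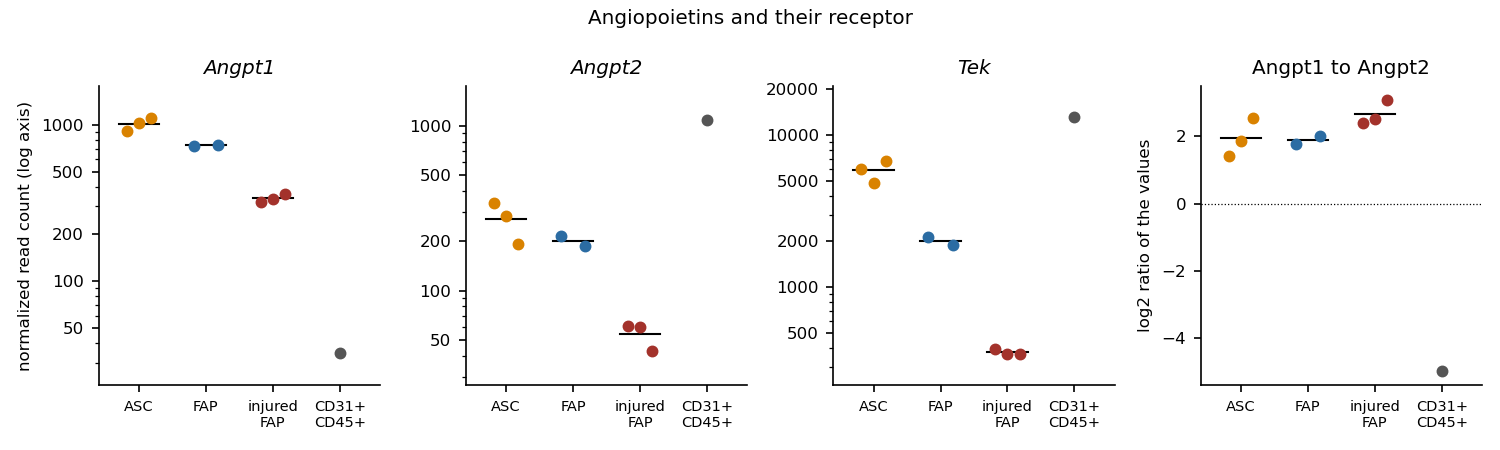
Normalized read count (log axis) of Angpt1, Angpt2 and their receptor gene Tek in each library, with a line at each replicated group's mean, and the log2 ratio of Angpt1 to Angpt2. All 3 genes are lowest of the stromal groups in injured FAPs, and the ratio is above 0 in the 8 stromal libraries and at -4.98 in the CD31+CD45+ library.

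Tek, the receptor of both angiopoietins, moved in the stromal libraries as well, with values of 5986, 4841 and 6699.9 in the 3 ASC libraries, 2120.5 and 1890.0 in the 2 FAP libraries, 395, 367 and 365 in the 3 injured FAP libraries and 13098 in the CD31+CD45+ library. It was highest of the stromal groups in ASCs and lowest in injured FAPs, with no overlap between the 3 groups. Tek was higher by 1.53 in ASCs than in FAPs (adjusted p = 7.07e-06) and fell by 2.41 in injured FAPs compared with FAPs (adjusted p = 5.30e-07, both in limma with Benjamini-Hochberg adjustment). In ASCs it reached 37% to 51.2% of the CD31+CD45+ value, and the part of endothelial RNA in it was not tested. Angpt4, a further ligand of Tek, had values of 999.9, 687 and 1279 in the 3 ASC libraries, 870.1 and 1287 in the 2 FAP libraries, 182, 205 and 191 in the 3 injured FAP libraries and 17.3 in the CD31+CD45+ library. Like Angpt1, in injured FAPs it fell by 2.45 compared with FAPs and fell by 2.31 compared with ASCs (adjusted p = 1.19e-05 and 6.29e-06, in limma with Benjamini-Hochberg adjustment). Both ligands, Angpt4 and the receptor were thus lower in injured FAPs than in the FAPs of NaCl-injected mice.

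Angptl2 (chr2:33216069-33247717, plus strand), a secreted glycoprotein linked to inflammation, did not differ beyond the cutoffs in any comparison. Its values were 14426, 11231 and 15159 in the 3 ASC libraries, 10072 and 11122 in the 2 FAP libraries, 10482, 9938 and 10316 in the 3 injured FAP libraries and 1314 in the CD31+CD45+ library. FAP and injured FAP libraries overlapped, and ASCs were above both by a small margin. The log2 fold change was -0.047 in injured FAPs compared with FAPs, with a 95% interval of -0.34 to 0.25 that lies within the cutoff of 0.58 in either direction. It was 0.35 in ASCs compared with FAPs (adjusted p = 0.0426, in limma with Benjamini-Hochberg adjustment), below the fold cutoff, and this sign turned under quantile normalization (-0.32) and CPM (-0.22). In injured FAPs compared with ASCs it was -0.40, which likewise did not pass and turned to 0.19 with quantile normalization and 0.30 in CPM. Angptl2 thus stayed high in every stromal group, and the stromal libraries held 757% to 1154% of its CD31+CD45+ value.

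Angptl4 (chr17:33773750-33781830, minus strand), the inhibitor of lipoprotein lipase, differed between all 3 stromal groups. Its values were 2748, 3795 and 2284 in the 3 ASC libraries, 435 and 497 in the 2 FAP libraries, 5202, 6999.7 and 5522 in the 3 injured FAP libraries and 345 in the CD31+CD45+ library. FAPs were lowest, ASCs in between and injured FAPs highest, and no libraries of different groups overlapped. The means were 2942 ± 774 in ASCs (SD, n = 3), 466 ± 44 in FAPs (SD, n = 2) and 5908 ± 959 in injured FAPs (SD, n = 3). Angptl4 was 12.6-fold higher in injured FAPs than in FAPs, a log2 fold change of 3.65 (95% interval 3.21 to 4.09, adjusted p = 4.58e-07, in limma with Benjamini-Hochberg adjustment). By p it ranked 118 of 13601 genes in that comparison. It was 6.18-fold higher in ASCs than in FAPs, at 2.63 (adjusted p = 2.53e-06). Against ASCs, injured FAPs were higher by 1.03 (95% interval 0.63 to 1.42, adjusted p = 4.89e-04). The fold of injured FAPs over FAPs ranged from 3.52 to 3.76 on the log2 scale over 16 alternative settings, so no scaling, tool or left-out library changed it much.

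Angptl4 is known as a target of PPAR receptors, so the other genes of that program and of lipoprotein lipase were set beside it. Of 14 tested genes, 7 were higher and 1 lower in ASCs compared with FAPs, 1 higher and 6 lower in injured FAPs compared with FAPs and 0 higher and 8 lower in injured FAPs compared with ASCs, in limma with Benjamini-Hochberg adjustment, with median log2 fold changes of 0.86, -0.59 and -1.42. Of all tested genes, 47.2%, 52.6% and 50.8% passed in the same order. The list mixes Lpl, Gpihbp1 and Lmf1 with the PPAR receptor genes and their targets. Whether PPAR receptors bear on Angptl4 in any group was not tested. Lpl, the lipase that Angptl4 inhibits, had values of 27978, 21036 and 32007 in the 3 ASC libraries, 15461 and 13186 in the 2 FAP libraries, 3918, 3718 and 3698 in the 3 injured FAP libraries and 12224 in the CD31+CD45+ library. It fell by 1.92 in injured FAPs compared with FAPs and fell by 2.82 compared with ASCs (adjusted p = 4.43e-06 and 1.17e-07, in limma with Benjamini-Hochberg adjustment). Injured FAPs therefore combined the most Angptl4 with the least Lpl of the stromal groups. Pparg, the adipogenic receptor, fell by 2.47 in injured FAPs compared with FAPs. Pdk4, which limits glucose oxidation, fell by 2.25. Plin2, which coats lipid droplets, was the only tested gene of the list higher in injured FAPs than in FAPs, by 0.78 (adjusted p = 2.85e-04, in limma with Benjamini-Hochberg adjustment). Gpihbp1, which carries the lipase on capillaries, was at 11251 in the CD31+CD45+ library. In FAPs it was at 354 and 203, and in the 6 other stromal libraries at most 23.2.

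Angptl1 and Angptl7 are further angiopoietin-like genes, and both were highest in FAPs. Angptl7 had values of 242, 284 and 328 in the 3 ASC libraries, 6249 and 5745 in the 2 FAP libraries, 2999.6, 3813 and 2888 in the 3 injured FAP libraries and 176 in the CD31+CD45+ library. It fell by 4.40 in ASCs (adjusted p = 2.71e-08) and fell by 0.90 in injured FAPs (adjusted p = 4.76e-04, both in limma with Benjamini-Hochberg adjustment) compared with FAPs. Angptl1 had values of 678, 683 and 1006 in the 3 ASC libraries, 5827 and 6707 in the 2 FAP libraries, 1574, 1619.7 and 1528 in the 3 injured FAP libraries and 100.4 in the CD31+CD45+ library. It fell by 3.01 in ASCs and fell by 1.99 in injured FAPs compared with FAPs. So, of the angiopoietin-like genes, Angptl4 was lowest in FAPs among the stromal groups and Angptl1 and Angptl7 highest there, while Angptl2 overlapped between FAPs and injured FAPs. Of the 5 tested genes in the list of other ligands (7 in all), 1 was higher and 2 lower in ASCs compared with FAPs, 1 higher and 3 lower in injured FAPs compared with FAPs and 2 higher and 2 lower in injured FAPs compared with ASCs. Among all tested genes, 47.2%, 52.6% and 50.8% passed in the same order. Angptl6 did not pass in any comparison and Angptl8 was too low to be tested.

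Ordered by level per kb in ASCs, the 8 ligands ran from Vegfa (4153 ± 1299, SD, n = 3) and Angptl2 (4075 ± 626), which overlapped, over Angptl4 (889 ± 234), Vegfb (315 ± 25), Angpt1 (237 ± 23.2), Pgf (235 ± 104) and Vegfc (99.5 ± 12.2) to Angpt2 (76.3 ± 21.1). Neighbours that overlapped between libraries were Vegfa and Angptl2, Angpt1 and Pgf, and Vegfc and Angpt2. In FAPs, Angptl2 led with 3174 ± 222 (SD, n = 2), followed by Vegfa (877 ± 82.4), Vegfb (376 ± 47.8), Pgf (215 ± 48.5), Vegfc (192 ± 13.3), Angpt1 (173 ± 1.83), Angptl4 (141 ± 13.3) and Angpt2 (56.2 ± 5.87), and only Pgf and Vegfc overlapped among neighbours. Injured FAPs had the order Angptl2 (3068 ± 83.4, SD, n = 3), Angptl4 (1786 ± 289.9), Vegfa (913 ± 47.2), Vegfb (459 ± 22.9), Vegfc (127 ± 4.85), Angpt1 (79.5 ± 5.08), Pgf (79.1 ± 7.14) and Angpt2 (15.3 ± 2.88), with an overlap of Angpt1 and Pgf. Angptl4 thus moved from the place next to the last in FAPs to the place behind Angptl2 in injured FAPs, and Angpt2 was last in all 3 stromal groups. In the CD31+CD45+ library Vegfc was first with 883 and Angpt1 last with 8.11.

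The receptors of these ligands were compared next, because the stromal cells were depleted of CD31+ cells, in which most of the receptors are expressed. Their counts stand beside 47.2%, 52.6% and 50.8% of all tested genes in the 3 comparisons, in the order below. Of 8 tested receptors and co-receptors, 1 was higher and 6 lower in ASCs compared with FAPs, 1 higher and 5 lower in injured FAPs compared with FAPs and 5 higher and 1 lower in injured FAPs compared with ASCs, in limma with Benjamini-Hochberg adjustment, with median log2 fold changes of -2.17, -1.67 and 1.48. Flt1, the receptor of Vegfa, Vegfb and Pgf, had values of 92.2, 44.2 and 32.6 in the 3 ASC libraries, 1259.9 and 953 in the 2 FAP libraries, 349, 356 and 321 in the 3 injured FAP libraries and 48349 in the CD31+CD45+ library. Kdr, the main signalling receptor of Vegfa, had values of 231, 116 and 65.3 in the 3 ASC libraries, 1055 and 684 in the 2 FAP libraries, 103, 98.4 and 80.8 in the 3 injured FAP libraries and 31407 in the CD31+CD45+ library. Both were low in every stromal library beside the CD31+CD45+ library, and FAPs held 1.97% and 2.61% of its Flt1. Flt1 fell by 4.40 and Kdr fell by 2.81 in ASCs compared with FAPs (adjusted p = 3.19e-06 and 2.41e-04, in limma with Benjamini-Hochberg adjustment). In injured FAPs compared with FAPs, Flt1 fell by 1.68 and Kdr fell by 3.17. Flt4, the receptor of Vegfc, had values of 10.5, 10.2 and 5.02 in the 3 ASC libraries, 75.1 and 92.2 in the 2 FAP libraries, 31.4, 25.6 and 20.6 in the 3 injured FAP libraries and 5523 in the CD31+CD45+ library and was likewise highest of the stromal groups in FAPs. Tie1, the partner of Tek, had values of 11.9, 35.1 and 11.3 in the 3 ASC libraries, 658 and 360.3 in the 2 FAP libraries, 54.9, 53.5 and 35.8 in the 3 injured FAP libraries and 27972 in the CD31+CD45+ library, with FAPs again highest of the stromal groups.

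The co-receptors are given next. Nrp1, which binds Vegfa together with Kdr, had values of 4005, 3897 and 4180.4 in the 3 ASC libraries, 6342 and 5065 in the 2 FAP libraries, 4363, 4802 and 4766 in the 3 injured FAP libraries and 24445 in the CD31+CD45+ library and did not pass in any comparison. The stromal libraries held 15.9% to 25.9% of its CD31+CD45+ value, far more than for Flt1 or Kdr. Nrp2, a co-receptor of Vegfc, had values of 361, 344 and 303 in the 3 ASC libraries, 992 and 961 in the 2 FAP libraries, 1989.8, 1787 and 1660.4 in the 3 injured FAP libraries and 8194 in the CD31+CD45+ library. It was highest of the stromal groups in injured FAPs, 0.89 above FAPs and 2.43 above ASCs on the log2 scale (adjusted p = 1.01e-04 and 4.88e-08, in limma with Benjamini-Hochberg adjustment). Ptprb, a phosphatase that acts on Tek, had values of 35.6, 56.6 and 35.2 in the 3 ASC libraries, 195 and 64 in the 2 FAP libraries, 132, 164 and 121 in the 3 injured FAP libraries and 53605 in the CD31+CD45+ library and fell by 1.41 in ASCs compared with FAPs. Pirb, named as a receptor of Angptl2, was at 341 in the CD31+CD45+ library. It was at 62 in injured FAP replicate 2, the stromal library with the highest summed value of leukocyte markers. In the other stromal libraries it was at most 9.15, too low to be tested.

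**Figure D5:**
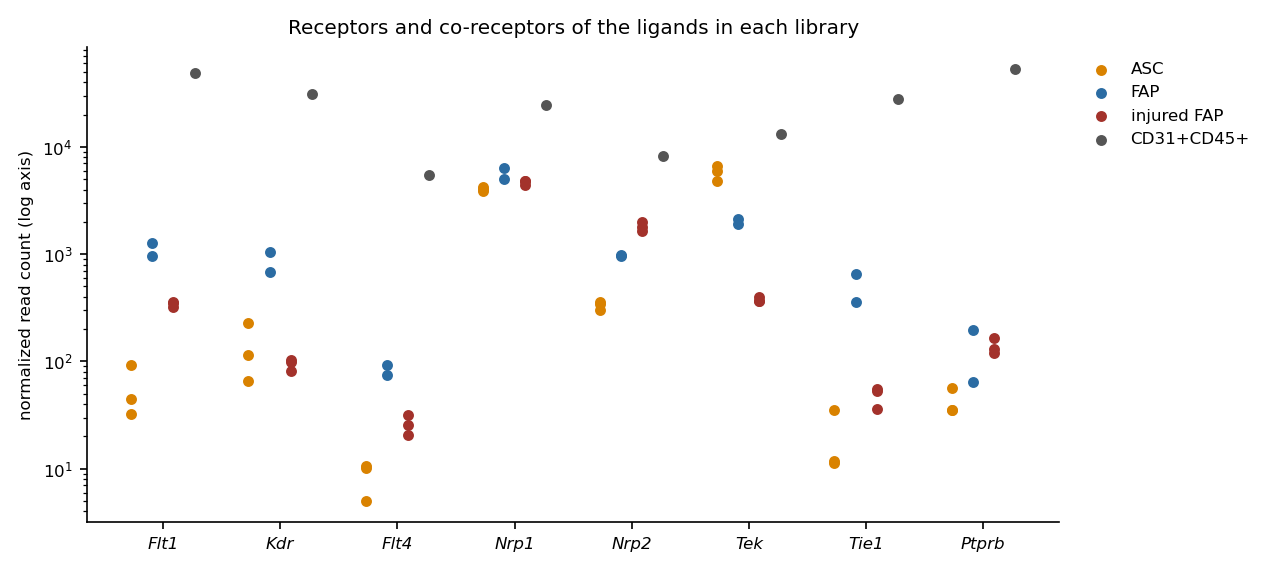
Normalized read count (log axis) of 8 receptors and co-receptors in each library (points), coloured by group. Each is highest in the CD31+CD45+ library, and Nrp1, Nrp2 in injured FAPs and Tek in ASCs come closest to it in the stromal libraries.

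Markers of other cell types are given beside the ligands. The background for the counts here and in the marker paragraphs that follow is 47.2%, 52.6% and 50.8% of all tested genes. These shares are for ASCs compared with FAPs, injured FAPs compared with FAPs and injured FAPs compared with ASCs. Of 12 tested endothelial markers, 5 were higher and 6 lower in ASCs compared with FAPs, 5 higher and 4 lower in injured FAPs compared with FAPs and 8 higher and 1 lower in injured FAPs compared with ASCs, in limma with Benjamini-Hochberg adjustment. Their summed value was 1465, 1218 and 1369.6 in ASCs, 2741 and 1626 in FAPs, 1932, 2159 and 1554 in injured FAPs and 312097 in the CD31+CD45+ library. The most abundant was Plvap in ASCs and Cdh5 in the other libraries, and Plvap, Cldn5, Emcn, Mmrn2 and Vwf were listed at 0 in both FAP libraries. The summed endothelial value of every stromal library was thus far below that of the CD31+CD45+ library, in which Vegfc and Angpt2 were highest. As deposited, the stromal libraries held 9.75% to 22.8% of its Vegfc. For Angpt2 they held 3.92% to 31.3%. Single endothelial markers differed in this respect, with Cdh5 at no more than 1438 in a stromal library against 98652, and Ecscr at no more than 399 against 5151. The part of endothelial RNA in the ligand values was not tested.

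Of 11 tested leukocyte markers, 5 were higher and 0 lower in ASCs compared with FAPs, 9 higher and 0 lower in injured FAPs compared with FAPs and 9 higher and 1 lower in injured FAPs compared with ASCs, in limma with Benjamini-Hochberg adjustment. Their summed value was 491, 415 and 388 in ASCs, 265 and 497 in FAPs, 748, 3477 and 657 in injured FAPs and 34526 in the CD31+CD45+ library. The most abundant was Cd68 or Csf1r in ASCs, Cd68 in FAPs and Lyz2 in injured FAP replicate 2, and 11 of the 14 markers, Ptprc among them, were listed at 0 in each FAP library. The summed value of injured FAP replicate 2 stood out, and that library also had the most Angptl4 (6999.7). Without it, Angptl4 was still 3.52 above FAPs on the log2 scale (adjusted p = 5.00e-06 in limma with Benjamini-Hochberg adjustment), and 5 ligands were differentially expressed as before.

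Of 9 tested markers of pericytes and smooth muscle, 0 were higher and 8 lower in ASCs compared with FAPs, 0 higher and 8 lower in injured FAPs compared with FAPs and 7 higher and 2 lower in injured FAPs compared with ASCs, in limma with Benjamini-Hochberg adjustment. Their summed value was 5576, 3538 and 4312 in ASCs, 26082 and 22752 in FAPs, 10902, 10529.7 and 11075 in injured FAPs and 99451 in the CD31+CD45+ library. Rgs5, a defining pericyte gene, had values of 100.1, 60 and 40.2 in the 3 ASC libraries, 6148 and 4583 in the 2 FAP libraries, 1718, 2018 and 2091 in the 3 injured FAP libraries and 40800.3 in the CD31+CD45+ library. The summed mural value was thus highest of the stromal groups in FAPs and higher again in the library labelled CD31+CD45+, which also held the most Angpt2, but Abcc9 was highest of the stromal groups in ASCs and Cspg4 in injured FAPs. Within the stromal groups, FAPs, which had the highest summed mural value, overlapped ASCs in Angpt2. Whether mural cells contributed to any ligand value was not tested.

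Muscle fibre markers (10 tested) had 0 higher and 10 lower in ASCs, and 0 higher and 8 lower in injured FAPs, compared with FAPs, and 7 higher and 0 lower in injured FAPs compared with ASCs. Their summed value was 182, 129 and 173 in ASCs, 1055 and 1206 in FAPs, 351, 379 and 288 in injured FAPs and 4879 in the CD31+CD45+ library. Satellite cell markers (3 tested) had 0 higher and 3 lower in ASCs, and 0 higher and 1 lower in injured FAPs, compared with FAPs, and 3 higher and 0 lower in injured FAPs compared with ASCs. Schwann cell markers (4 tested) had 0 higher and 3 lower in ASCs, and 0 higher and 2 lower in injured FAPs, compared with FAPs, and 0 higher and 1 lower in injured FAPs compared with ASCs. The fibre markers thus had their highest stromal mean in FAPs, while Tnnt3 was lowest in injured FAPs. Adipocyte markers (3 tested) had 3 higher and 0 lower in ASCs, and 0 higher and 2 lower in injured FAPs, compared with FAPs, and 0 higher and 3 lower in injured FAPs compared with ASCs, with Adipoq at 44.8, 44.2 and 37.7 in ASCs. Platelet markers (4 tested) had 1 higher and 0 lower in ASCs, and 2 higher and 2 lower in injured FAPs, compared with FAPs, and 2 higher and 2 lower in injured FAPs compared with ASCs. Pf4, a platelet chemokine, was at 33.7, 164 and 33.6 in injured FAPs and at most 2.63 in the other stromal libraries. Lymphatic endothelial markers (2 tested) had 1 higher and 0 lower in ASCs, and 1 higher and 1 lower in injured FAPs, compared with FAPs, and 0 higher and 2 lower in injured FAPs compared with ASCs. Genes of FAPs and ASCs themselves (8 tested) had 5 higher and 0 lower in ASCs, and 2 higher and 5 lower in injured FAPs, compared with FAPs, and 1 higher and 6 lower in injured FAPs compared with ASCs. The part of these cell types in the ligand values was not tested.

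Secreted inhibitors of angiogenesis were the last list set beside the ligands. Of 8 tested genes, 2 were higher and 1 lower in ASCs compared with FAPs, 2 higher and 5 lower in injured FAPs compared with FAPs and 1 higher and 6 lower in injured FAPs compared with ASCs, in limma with Benjamini-Hochberg adjustment, with median log2 fold changes of 0.27, -0.91 and -1.25. Thbs1, which encodes thrombospondin, had values of 22540.0, 20726 and 16511 in the 3 ASC libraries, 22034 and 14418 in the 2 FAP libraries, 48504, 39425 and 45542 in the 3 injured FAP libraries and 4892 in the CD31+CD45+ library. It rose by 1.31 in injured FAPs compared with FAPs (adjusted p = 2.00e-04, in limma with Benjamini-Hochberg adjustment), as did Adamts1, by 1.20. Serpinf1, which encodes pigment epithelium-derived factor, went the other way with values of 119499, 88565 and 105160.0 in the 3 ASC libraries, 85232 and 93927 in the 2 FAP libraries, 34446, 29271 and 29048 in the 3 injured FAP libraries and 2687 in the CD31+CD45+ library, a log2 fold change of -1.54 in injured FAPs compared with FAPs. Cnmd, which encodes chondromodulin, fell by 2.57. Vash1 fell by 1.63 and Timp3 fell by 1.21 in the same comparison. Of all tested genes, 47.2%, 52.6% and 50.8% passed in the 3 comparisons. In injured FAPs compared with FAPs, 24.9% were higher and 27.7% lower. Changes in both directions are therefore not a result about the inhibitors.

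To find the genes whose pattern was most like that of a ligand, profiles of log2(value + 1) over the 9 libraries were centred on their means and compared by root mean square difference, among genes with a mean of at least 100. For Vegfa these were Usp2 (root mean square difference 0.20), Nr4a3 (0.25) and Man1a (0.26), against a median of 1.42 over 10883 genes. Nr4a3, an immediate early gene, had means of 27552 in ASCs, 5805 in FAPs and 6491 in injured FAPs and a value of 2687 in the CD31+CD45+ library. For Vegfc they were Lifr (root mean square difference 0.15), Ripor1 (0.20) and Tmc6 (0.21). Lifr, the receptor of leukemia inhibitory factor, had means of 587 in ASCs, 1088 in FAPs and 617 in injured FAPs and a value of 4184 in the CD31+CD45+ library. The genes near Vegfa were highest in ASCs and those near Vegfc in the CD31+CD45+ library. Those near Vegfc also shared its order of stromal means, from FAPs over injured FAPs to ASCs. Near Vegfa, Man1a had a lower mean in injured FAPs (3517) than in FAPs (4368), unlike Vegfa. For Angpt1 the nearest genes were Ndrg4 (root mean square difference 0.15), Aff2 (0.19) and Cercam (0.21). For Angpt2 they were Chst15 (root mean square difference 0.28), Gngt2 (0.29) and Mgll (0.31). Mgll, a lipase of monoacylglycerols, had means of 3995 in ASCs, 3137 in FAPs and 792 in injured FAPs and a value of 26129 in the CD31+CD45+ library. The patterns of Angptl2 and Angptl4 differed in how closely any gene followed them. For Angptl2 the nearest genes were Klhl29 (root mean square difference 0.13), Fkbp14 (0.15) and Prkca (0.17). Those of Angptl4 were Sqle (root mean square difference 0.39), Rdh10 (0.41) and Slc39a14 (0.41), the widest distances of the 6 ligands. Slc39a14, a zinc and iron transporter, had means of 4940.2 in ASCs, 1471 in FAPs and 11835 in injured FAPs and a value of 926 in the CD31+CD45+ library. Over 9 libraries in 4 groups, a small difference mainly says that the group means run alike.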

How the data were processed

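RNA-seq libraries of ASCs (3), FAPs (2), injured FAPs (3) and CD31+CD45+ cells (1) were grouped by the sample labels. Per the study's methods, the authors filtered reads with fastq_illumina_filter 0.1, used HISAT2 2.2.1 for alignment to mm10, featureCounts of Subread 2.0.1 for counting and DESeq2 1.34.0 for testing. Strand setting and handling of multi-mapping reads are not given in the sources used here. The authors deposited a normalized signal per gene and library, scaled by 1 factor per library. From these values log2(value + 1) was tested with limma 3.58.1 in R 4.3.3 (trend, 1 mean per group, Benjamini-Hochberg adjustment over 13601 genes). The table lists 26214 genes, 6684 at 0 throughout, and 24870 matched GENCODE M21 (GRCm38), which gave positions and exonic lengths. It has 2 empty columns. A value of 3 reads was 2.29 to 4.71, depending on the library. Exact intervals cover counting error only. All values came out whole in reads, so these reads also went into edgeR 4.0.16 and DESeq2 1.42.0. For ASCs compared with FAPs, limma called 6416 genes, edgeR 6450 and DESeq2 6412. For injured FAPs the counts were 7153, 7303 and 7227 compared with FAPs, or 6909, 7000 and 6865 compared with ASCs. The tests were tried on simulated data first. Other alternatives were the pseudocount (0.5 and 8), the filter (none, or a mean of 50), quantile normalization, a common 75th percentile, a fit of only the groups compared, the replicate number as a block and each library left out. CPM, and the ratio of angiopoietins with each library left out, were added after seeing the data.

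The members and the gene lists were chosen with earlier results of these data known. Named genes are the 8 ligands, up to 4 genes of a list and direction by size of change with a mean of at least 50, defining markers, and the 3 nearest genes of 6 ligands. Remaining genes of the receptor and ligand lists are named for their role, and Mcph1 and Ralgps1 for their position. Genes at 0 in FAPs were chosen after their values were seen. Promoter windows came from RefSeq. Protein sequences were not used here. The study describes triplicates, and 2 FAP libraries were analysed here. Versions of further tools were numpy 2.4.6, pandas 2.3.3, scipy 1.17.1 and matplotlib 3.10.9.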

Additional observations from a re-analysis of the deposited data

Results flagged for a closer look

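The CD31+CD45+ library entered no comparison, and 2 of the 8 ligands were higher in it than in all 8 stromal libraries. Vegfc was at 2163 (exact 95% Poisson interval 2050.0 to 2279.9) against a stromal range of 211 to 492. Angpt2 was at 1089 (interval 1009.6 to 1173) against 42.7 to 341. As deposited, the other 6 ligands were lower in it than in any stromal library, although the interval of Vegfb (304 to 397) includes its stromal minimum of 367, and in CPM Vegfb was higher in it than in the 3 ASC libraries. This library has no replicate, and markers of endothelial cells, leukocytes and mural cells were all high in it, so the values cannot be assigned to a cell type.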

How the results depend on the processing

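The ligands were tested in 3 comparisons under 16 or 17 alternatives each, 392 values in all, of which CPM was chosen after seeing the data, as was leaving out libraries for the ratio below. Of these values, 374 stayed on the same side of the cutoffs, 8 no longer passed, 10 newly passed, and no differentially expressed ligand turned its direction. The number of ligands that passed was 3 to 4 in ASCs against FAPs and 5 to 7 in injured FAPs against ASCs. In injured FAPs against FAPs it was 5 in the main analysis and ranged from 3 to 5 with each library left out, with 3 without FAP replicate 2, where Pgf (-1.19) and Vegfc (-0.52) no longer passed. Leaving out a FAP library leaves 1, assumed to vary like the other groups. Vegfc in that comparison also fell short of 0.58 with a pseudocount of 8 (-0.575), without injured FAP replicate 1 (-0.56), in CPM and with edgeR and DESeq2. Among values that passed neither way, 4 signs turned in ASCs against FAPs in CPM, namely Pgf (-0.51), Angpt1 (-0.12), Angpt2 (-0.14) and Angptl2 (-0.22). The median of all tested genes was -0.48 in that setting. With each library left out, the difference in the log2 ratio of Angpt1 to Angpt2 was 0.55 to 0.90 in injured FAPs against FAPs, 0.46 to 1.02 in injured FAPs against ASCs and -0.25 to 0.30, with a turned sign, in ASCs against FAPs. The causes of these changes were not tested.

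The labels do not say whether libraries of the same replicate number share animals or a pool. Same-numbered libraries deviated together with correlations of -0.054 to 0.045, which cannot settle this with 2 or 3 libraries per group. Used as a block, the replicate numbers gave 6287, 7046 and 6861 differentially expressed genes, beside 6416, 7153 and 6909, and 4, 4 and 5 ligands. With the replicate block Angpt2 newly passed in ASCs against FAPs (0.60), and Vegfc no longer passed in injured FAPs against FAPs (-0.53). At this depth, Angpt1 in the CD31+CD45+ library (22 reads) had the widest relative interval of the 8 ligands.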
